A study of Helianthus annuus with 15 samples.

Results

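The genes described here were those that leaf and flower of sunflower (Helianthus annuus) shared at a higher level than root, stem and axil. They were taken from an FPKM table (reads scaled by gene length and library size) by a rule on tissue means of log2(FPKM + 1). Leaf and flower each had to exceed the other 3 tissues by at least 1, had to lie less than 1 apart, and every leaf and flower library had to stand above every root, stem and axil library. Of 57688 identifiers with a chromosome prefix, among 63411 in all, 165 met the rule. The tissue means alone chose 229, and the condition on single libraries removed 64 of them. Since these values chose the members, the height of leaf and flower over the other tissues is a description here and was given no test.

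The study sequenced polyadenylated RNA of leaf, flower, root, stem and axil with 3 libraries per tissue, 15 in all. Its title concerns a family of transcription factors and shoot branching, and the labels name the tissue alone. Genotype, plant age, growth conditions, the part of the flower taken and whether the 3 libraries came from separate plants are not given. A p-value here thus sets a difference against variation among libraries that may be technical repeats. That variation is taken within each tissue and pooled over all 15 libraries. Libraries held 12087704 to 14732362 reads, so 3 reads on a gene of 1000 nt amounted to between 0.204 and 0.248 FPKM. In whole tissues, fewer cells of a type and less RNA per cell cannot be told apart.

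Leaves and floral organs are both lateral organs that form on the flanks of shoot meristems, and floral organs are widely viewed as modified leaves. The sunflower head is a cluster of many small florets surrounded by green bracts. Leaf and green bracts carry out photosynthesis, whereas the root lies below ground and is not green. The axil is the angle between leaf and stem, where side shoots start. The table pairs none of the members with a gene name, and 0 of its identifiers matched the reference gene table, so the members are given by identifier, with the chromosome written in it. For the same reason no leaf or flower marker gene could be looked up.

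Leaf 2 and Flower 1 stood apart from the other libraries of their tissues. Unplaced identifiers, which have no assigned chromosome, took 0.286% of the reads of Leaf 2 and 0.277% of those of Flower 1, against at most 0.0670% in the other 13 libraries. The labels do not say whether these 2 libraries were prepared or sequenced together, and whether material or reads of one entered the other, which would bear on any level they share, was not tested. Of the 165 members, 114 met the rule again without these libraries, 51 did not, and 18 further genes came in, for 132 in all. Without Leaf 2 alone, the rule chose 127 genes, of which 118 were members.

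Most members stood above the typical gene in leaf and flower, which the margin of the rule favours. Genes tested, those with at least 1 FPKM in 3 or more libraries, had medians of 4.13 (Leaf 3) to 5.33 FPKM (Flower 2) in these libraries. The mean of a member over the 6 leaf and flower libraries ran from 1.62 to 318 FPKM, with a median of 27.7. It was at least 100 FPKM for 22 members, from 10 to under 100 for 98 and under 10 for 45. Together the members took 1.04% ± 0.313 of the reads in leaf and 0.931% ± 0.0415 in flower. They took 0.0890% ± 0.00431 in root, 0.264% ± 0.0235 in stem and 0.252% ± 0.0216 in axil (SD, n = 3 libraries each). The median member stood at 28.4 FPKM in leaf and 24.1 FPKM in flower, against 0.827 in root, 6.93 in stem and 5.48 in axil. The other 3 tissues were thus not alike: stem and axil kept an intermediate level and root the lowest.

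**Figure D1:**
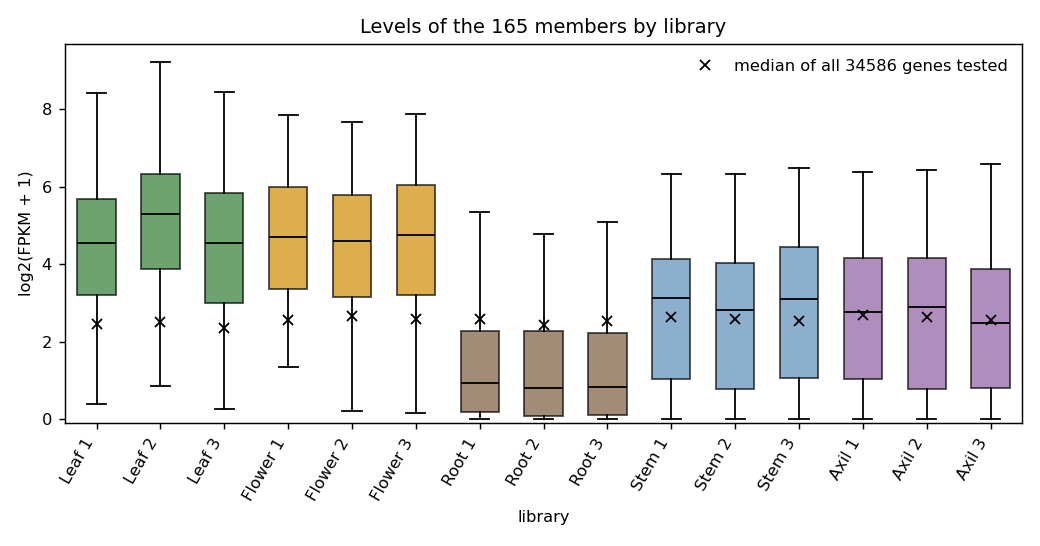
Levels of the 165 members in each library, as log2(FPKM + 1). Boxes span the quartiles with the median as a line, whiskers reach the lowest and highest member, and crosses mark the median of all 34586 genes tested. The median FPKM of the members was 22.6 to 38.5 in the leaf libraries and 23.4 to 26.0 in flower, against 0.757 to 0.911 in root, 6.09 to 7.78 in stem and 4.55 to 6.49 in axil.

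The most abundant member was HannXRQ_Chr17g0540101 on chromosome 17. It had 341, 599 and 347 FPKM in leaf and 207, 201 and 216 FPKM in flower. In root it had 0.147, 0.366 and 0.287 FPKM, in stem 79.2, 63.3 and 76.7, and in axil 72.8, 85.5 and 95.8. This gene was close to absent from root while stem and axil held it at a substantial level. HannXRQ_Chr13g0403031 on chromosome 13 came next, with 285, 368 and 293 FPKM in leaf and 200, 182 and 203 in flower. It had 10.3, 4.32 and 5.09 FPKM in root, 68.4, 76.9 and 63.8 in stem, and 82.3, 84.8 and 66.7 in axil. In both genes every leaf library stood above every flower library, and root was lowest.

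The margin, the log2 distance from the lower of leaf and flower to the highest other tissue, had a median of 1.33. It was under 1.5 for 109 members and at least 2 for 19, so most members lay close to the threshold. The largest belonged to HannXRQ_Chr08g0227611 on chromosome 8, at 4.10. Its values were 68.0, 29.2 and 57.3 FPKM in leaf and 72.1, 49.0 and 104 in flower, against 0 in all 3 root libraries, 1.61, 5.05 and 0.532 in stem and 0.758, 0.270 and 1.88 in axil. HannXRQ_Chr13g0399961 on chromosome 13 followed with a margin of 4.09. It had 21.4, 184 and 27.5 FPKM in leaf and 42.6, 42.9 and 37.7 in flower, against at most 0.644 in root, 3.68 in stem and 0 in axil. Its Leaf 2 value exceeded that of every other library, while the flower libraries were nearly equal.

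Just inside the margin of 1 lay HannXRQ_Chr13g0413291 and HannXRQ_Chr10g0302621, both at 1.002. The first had 8.75, 11.2 and 9.20 FPKM in leaf and 9.91, 7.17 and 7.65 in flower, against 3.12, 4.15 and 3.53 in axil, the next tissue. The genes just outside were HannXRQ_Chr16g0521521, at 0.9986, and HannXRQ_Chr01g0000121, at 0.996. HannXRQ_Chr16g0521521 had 11.1, 17.8 and 12.3 FPKM in leaf and 19.8, 14.2 and 19.4 in flower, against 7.31, 4.99 and 6.66 in stem. Values on either side of the threshold thus looked alike.

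Grouped by their level outside leaf and flower, the members showed 3 main patterns. In 31 members every root, stem and axil library was under 1 FPKM. These were low genes in leaf and flower too, with medians of 3.69 and 3.40 FPKM. In 32 members stem and axil averaged at least 1 FPKM while every root library was under 1. Their medians were 33.1 FPKM in leaf and 34.5 in flower, against 0.213 in root, 10.8 in stem and 6.61 in axil. The largest group, 75 members, averaged at least 1 FPKM in all 5 tissues, with medians of 49.7 in leaf and 52.4 in flower, against 4.37 in root, 13.3 in stem and 14.7 in axil. The other 27 met none of these definitions and followed no single pattern.

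**Figure D2:**
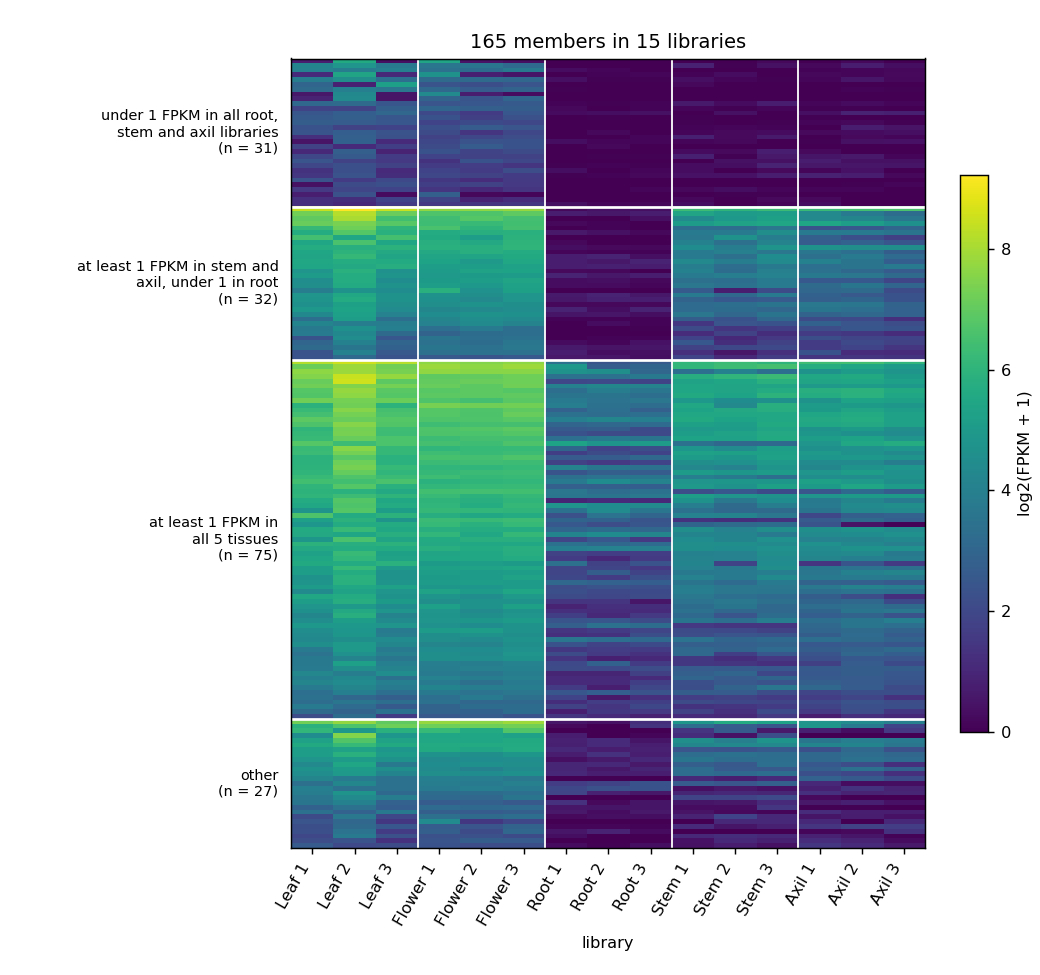
Each row is 1 of the 165 members and each column 1 of the 15 libraries, coloured by log2(FPKM + 1). Rows are grouped by level outside leaf and flower (31, 32, 75 and 27 members) and ordered by mean leaf and flower FPKM within a group, and the Leaf 2 column is brighter than Leaf 1 and Leaf 3 over most rows.

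Members with no reads outside leaf and flower were few. Only 3 of the 165 had 0 reads in all 9 root, stem and axil libraries. HannXRQ_Chr02g0044901 on chromosome 2 had 0.515, 18.8 and 0.437 FPKM in leaf and 19.7, 0.653 and 0.231 in flower. A count of 0 allows this gene up to between 0.661 and 0.795 FPKM in a root, stem or axil library (3 reads per library, counting error only). Those limits lie above its level in Leaf 1, Leaf 3, Flower 2 and Flower 3, so its difference from the other tissues rests on Leaf 2 and Flower 1. HannXRQ_Chr12g0360281 on chromosome 12 had 0.838, 20.4 and 0.407 FPKM in leaf and 6.60, 4.25 and 6.99 in flower, with limits of 0.307 to 0.370 FPKM elsewhere. Its flower libraries were even, and in leaf it was high in Leaf 2 alone.

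The rule bounded root, stem and axil from above and did not order them, so the direction of a difference among these 3 was left free and was tested. The bound limits how far the 3 can differ, and it was not put on all genes tested. Shares called among the members and among all genes are thus set side by side as a description. The fit covered the 34586 genes that reached 1 FPKM in 3 or more libraries, among them 162 of the 165 members. The remaining 3 were HannXRQ_Chr02g0044901, HannXRQ_Chr10g0283511 and HannXRQ_Chr00c0313g0573471. Calls needed both a log2 difference of 1 or more in size and an adjusted p below 0.05 (limma on all 15 libraries, Benjamini-Hochberg). The spread in each test was pooled over all 5 tissues, so leaf and flower libraries enter it as well. HannXRQ_Chr12g0360281, at 0 in every root, stem and axil library, had an SE of 0.711 in these tests. A member that varied between leaf libraries could thus miss a call. Every difference is one of log2(FPKM + 1), and for low genes this is smaller in size than the log2 ratio of the FPKM values.

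Root stood below axil in most members. Axil was higher than root in 89 of the 162 members tested (54.9%), against 13.7% of all genes tested, and lower in 3, against 11.2%. The other 70 were not called, and 33 of them could not be, since every axil and root library was under 1 FPKM. Among the 129 that could, axil was higher in 69.0%, against 14.7% of all genes that could. The median difference was 1.27 over the members and 0.10 over all genes. For HannXRQ_Chr17g0540101, whose values are given above, axil exceeded root by 6.08 ± 0.19 (SE; limma adjusted p = 7.49e-11). HannXRQ_Chr03g0085111 on chromosome 3 had 42.1, 34.98 and 23.5 FPKM in axil, against 0.154, 0.0641 and 0 FPKM in root, while leaf held 136, 164 and 112 and flower 80.5, 72.7 and 85.6. Every axil library lay far above every root library, a difference of 4.97 ± 0.19 (SE; limma adjusted p = 3.97e-10).

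In the other direction, HannXRQ_Chr11g0323621 on chromosome 11 had 4.23, 0.390 and 0.0775 FPKM in axil, against 4.76, 3.56 and 4.58 in root. Axil 1 lay close to the root libraries and the other axil libraries far below them, so the axil libraries did not behave alike. The difference of -1.41 ± 0.44 (SE; limma adjusted p = 0.0206) was no longer called without Root 1, Root 3, Axil 2 or Axil 3, or with a pseudocount of 5 (limma adjusted p from 0.0557 to 0.0928). HannXRQ_Chr02g0055621 on chromosome 2 had 1.09, 0.233 and 0.278 FPKM in axil, against 2.19, 2.75 and 3.97 in root, a difference of -1.39 ± 0.26 (SE; limma adjusted p = 0.000757). With a pseudocount of 5 it was -0.52 and the call was lost. The third was HannXRQ_Chr09g0264031 on chromosome 9, at 0.741, 1.55 and 0.860 FPKM in axil and 2.96, 3.83 and 4.05 in root. It is named because only 3 members were called, after its values were seen.

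Root was lower than stem in 88 members (54.3%), against 18% of all genes tested, and higher in 5, against 15%, with 69 not called. Of those, 31 were under 1 FPKM in every root and stem library. Among the 131 that could be called, root was lower in 67.2%, against 18.9% of all genes that could. The median difference was -1.29 over the members and -0.04 over all genes. These counts and those for axil against root share the 3 root libraries and are not independent of each other. The largest differences belonged to the same named genes, with 0.147, 0.366 and 0.287 FPKM in root against 79.2, 63.3 and 76.7 in stem for HannXRQ_Chr17g0540101, a difference of -5.87 ± 0.19 (SE; limma adjusted p = 8.58e-11). HannXRQ_Chr03g0085111 had at most 0.154 FPKM in root against 33.0, 39.3 and 41.5 in stem, a difference of -5.18 ± 0.19 (SE; limma adjusted p = 2.32e-10).

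A few members ran the other way. HannXRQ_Chr06g0165981 on chromosome 6 had 40.1, 26.7 and 33.4 FPKM in root, against 10.1, 7.54 and 7.83 in stem. Leaf held 110, 80.2 and 97.8 FPKM of it and flower 89.2, 81.7 and 101, so stem was the lowest tissue and root lay between it and leaf. The difference between root and stem was 1.85 ± 0.22 (SE; limma adjusted p = 1.29e-05). HannXRQ_Chr07g0199401 on chromosome 7, with an implied length of 6213 nt the longest member, had 5.95, 9.89 and 8.59 FPKM in root, against 1.91, 1.58 and 1.65 in stem, a difference of 1.73 ± 0.17 (SE; limma adjusted p = 1.75e-06), which a pseudocount of 5 brought to 0.96, just under the size needed for a call. The other 3 were HannXRQ_Chr10g0304701, HannXRQ_Chr17g0545041 and HannXRQ_Chr09g0264031, with differences of 1.44, 1.25 and 1.72.

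Axil was higher than stem in 7 members (4.32%), against 9.5% of all genes tested, and lower in 11 (6.79%), against 10.7%. Of the 162, 28 were under 1 FPKM in every axil and stem library and could not reach a call (17.3%, against 7.22% of all genes tested). Among the 134 that could, 5.22% were higher and 8.21% lower, against 10.2% and 11.5% of all genes that could. Of the 162, 144 were not called, and the median difference was -0.05 over the members and 0.07 over all genes. A member not called may still differ, and 47 of the 162 had an unadjusted p under 0.05. HannXRQ_Chr06g0165981 had 27.4, 45.6 and 51.1 FPKM in axil against the stem values above, a difference of 2.12 ± 0.22 (SE; limma adjusted p = 1.87e-05). HannXRQ_Chr07g0199401 had 7.72, 11.2 and 9.29 FPKM in axil, a difference of 1.92 ± 0.17 (SE; limma adjusted p = 4.41e-06). On the low side, HannXRQ_Chr11g0323621 stood at a difference of -2.15 ± 0.44 (SE; limma adjusted p = 0.00205), with 6.85, 8.05 and 8.60 FPKM in stem. HannXRQ_Chr02g0055621 differed by -2.05 ± 0.26 (SE; limma adjusted p = 7.25e-05), with 5.21, 4.41 and 5.93 FPKM in stem, and with a pseudocount of 5 by -0.88, which is not called.

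**Figure D3:**
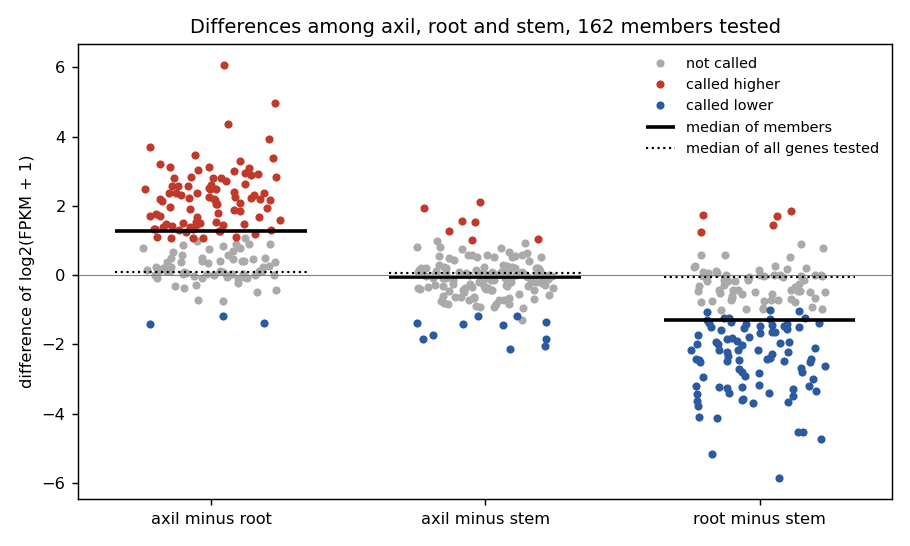
Differences of log2(FPKM + 1) for the 162 members tested, 1 point per member, in axil minus root, axil minus stem and root minus stem. Solid lines mark the median of the members (1.27, -0.05 and -1.29) and dotted lines that of all genes tested; 89 points are called higher in axil than root and 88 lower in root than stem.

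By tissue means, root alone was the lowest of root, stem and axil in 126 members, stem in 18 and axil in 14, with a tie in 7. Over all genes tested, root alone was lowest in 40.5%, stem in 36.3% and axil in 21.3%. The next tissue below leaf and flower was stem for 86 members, axil for 67 and root for 9, with a tie at 0 in 3. Every root library was under 1 FPKM in 76 members, against 16.4% of all genes tested. The count was 35 for stem, against 14.1%, and 37 for axil, against 13.3%. The rule held all 3 tissues low, so an excess over all genes was favoured by it and is not read as a result. Among genes shared by pairs of tissues under the same rule, root was the lowest of the remaining 3 in 76.4% of the 165 of leaf and flower, against 38.4% (leaf and axil) to 67.1% (leaf and stem) in the 5 other pairs without root. These shares were compared without a test. By number of shared genes, leaf and flower came after flower and stem with 588 and root and axil with 189, of 10 pairs.

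Leaf and flower levels were close by construction, since the rule held them within 1 on the log2 scale. The leaf minus flower difference had quartiles of -0.18 and 0.42 and a median of 0.06, against -0.08 over all genes tested. It was positive in 95 members and negative in 70. All 3 leaf libraries stood above all 3 flower libraries in 34 members, against 23.1% of all genes tested, and below them in 8, against 34%. The rule bounded these differences, so nothing is read from those counts. Without Leaf 2 the median was -0.16, and 60 members had the higher mean in leaf. Both remaining leaf libraries then lay above all flower libraries in 37 members, against 30.4% of all genes, and below them in 65, against 39.8%. The side on which most members fell thus changed without that 1 library. The members were chosen with Leaf 2 and many were high in it, so this change follows in part from the choice. Nothing is read from it about leaf against flower.

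The widest leaf excess within the limit belonged to HannXRQ_Chr17g0540101, described above, at 0.99, and to HannXRQ_Chr14g0450801 on chromosome 14, at 0.86. HannXRQ_Chr14g0450801 had 181, 347 and 216 FPKM in leaf and 122, 129 and 144 in flower, so the groups did not overlap. The widest flower excess belonged to HannXRQ_Chr10g0304701 on chromosome 10, at -0.99, with 35.7, 59.5 and 26.7 FPKM in leaf and 77.9, 74.6 and 79.7 in flower. HannXRQ_Chr02g0052341 on chromosome 2 followed at -0.91, with 59.5, 148 and 61.1 FPKM in leaf and 160, 150 and 151 in flower. In that gene Leaf 2 nearly reached the flower libraries while Leaf 1 and Leaf 3 stayed well below.

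**Figure D4:**
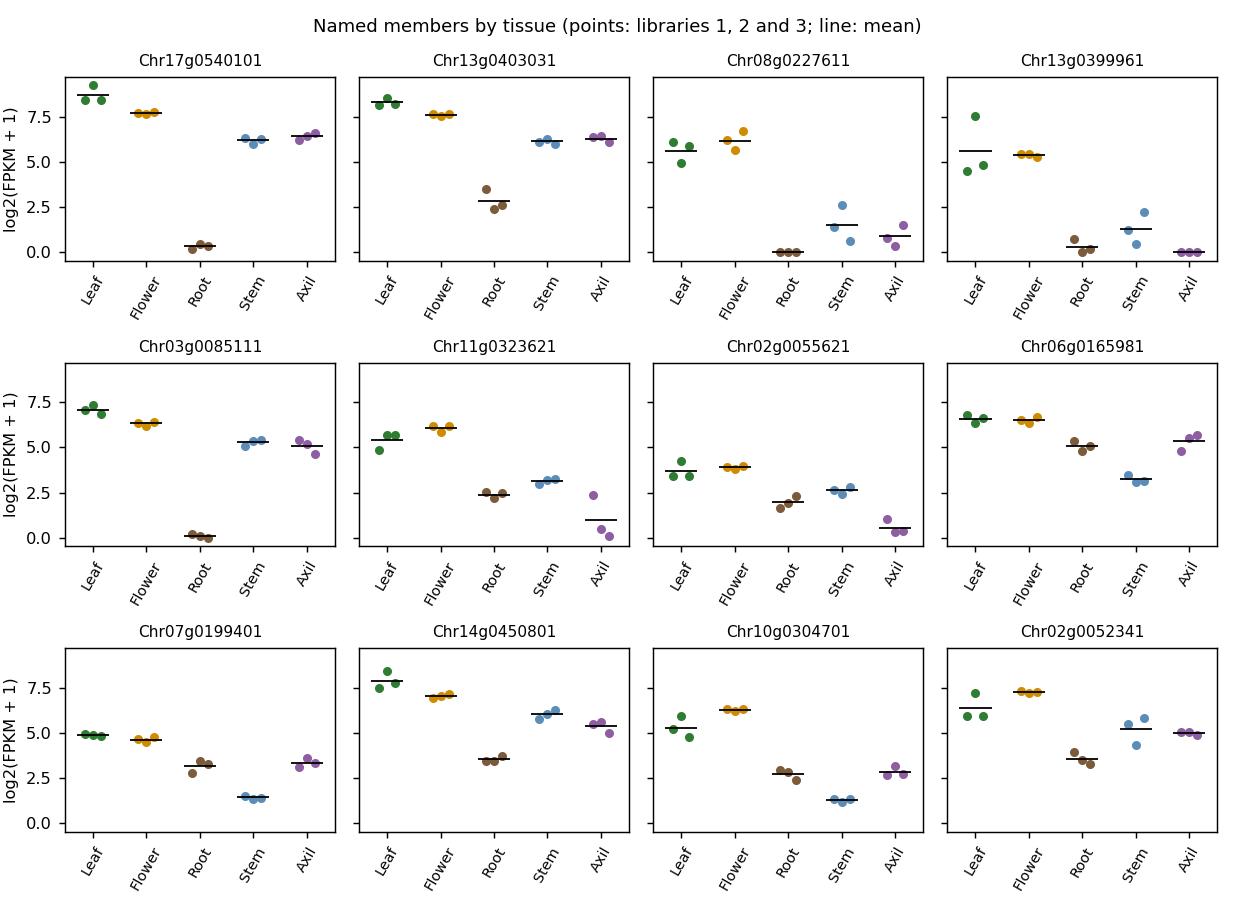
Levels of 12 named members as log2(FPKM + 1), with 1 point per library in the order of replicates 1, 2 and 3 and a line at the tissue mean. Root lies near 0 for Chr17g0540101 and Chr03g0085111 while stem and axil are intermediate, and stem is the lowest tissue for Chr06g0165981, Chr07g0199401 and Chr10g0304701.

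The members varied more between leaf libraries than between flower libraries. The median SD over 3 libraries on the log2 scale was 0.48 in leaf and 0.12 in flower, against 0.26 and 0.15 over all genes tested. It was 0.15 in root, 0.20 in stem and 0.22 in axil, against 0.21, 0.25 and 0.22 over all genes tested. The choice may widen the leaf SD of the members, since a gene high in Leaf 2 meets the rule more readily. Leaf 2 was the highest leaf library in 131 of the 165 members, against 41.6% of all genes tested. It exceeded the mean of Leaf 1 and Leaf 3 by a median of 0.72 over the members and 0.02 over all genes. In FPKM it was at least 1.5 times that mean in 99 members, against 27.8% of all genes. Because a high Leaf 2 helps a gene to meet the rule, the genes chosen without Leaf 2 were read as well. Among those 127, Leaf 2 was the highest leaf library in 91 (71.7%). Its median excess over the mean of Leaf 1 and Leaf 3 was 0.59 over all 127. Over groups of members, the excess was largest, at 0.81, in the 32 with stem and axil expression and root under 1 FPKM. It was smallest, at 0.40, in the 31 under 1 FPKM outside leaf and flower. Those 31 were low in leaf and flower too, where log2(FPKM + 1) shrinks a given fold more. The members were also chosen with Leaf 2, so the order of these groups is not read as a result. The part of the unplaced reads of Leaf 2 in its excess over the members was not tested.

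A small group of members was high in Leaf 2 and Flower 1 together and low in the other leaf and flower libraries. In 4 members both libraries were at least 4 times the rest of their tissue (2.42%), against 0.359% of all chromosome identifiers, those without reads included. High values in these 2 libraries help a gene to meet the rule, so the higher share among members is not read as a result. HannXRQ_Chr00c0313g0573471, an identifier not placed on a chromosome, had 0.619, 47.5 and 0.263 FPKM in leaf and 40.4, 0.392 and 0.278 in flower, the widest range over the 6 libraries. HannXRQ_Chr10g0284361 on chromosome 10 had 1.196, 41.3 and 1.02 FPKM in leaf and 25.3, 0.741 and 0.429 in flower. HannXRQ_Chr02g0044901 had the values given above. The fourth, HannXRQ_Chr10g0283511, was at 0.699, 3.94 and 0.198 FPKM in leaf and 5.85, 0.157 and 0.125 in flower, and is named after its values were seen. These genes held 1841 reads in Leaf 2 and Flower 1 and 108 in the other 13 libraries. All 4 were under 1 FPKM in every root, stem and axil library, and none (0) met the rule without Leaf 2 and Flower 1. Their standing as genes of leaf and flower thus rests on 1 library in each tissue. Over the other 161 members, Leaf 2 still exceeded the rest of its tissue by a median of 0.70, while the median for Flower 1 was -0.00403.

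**Figure D5:**
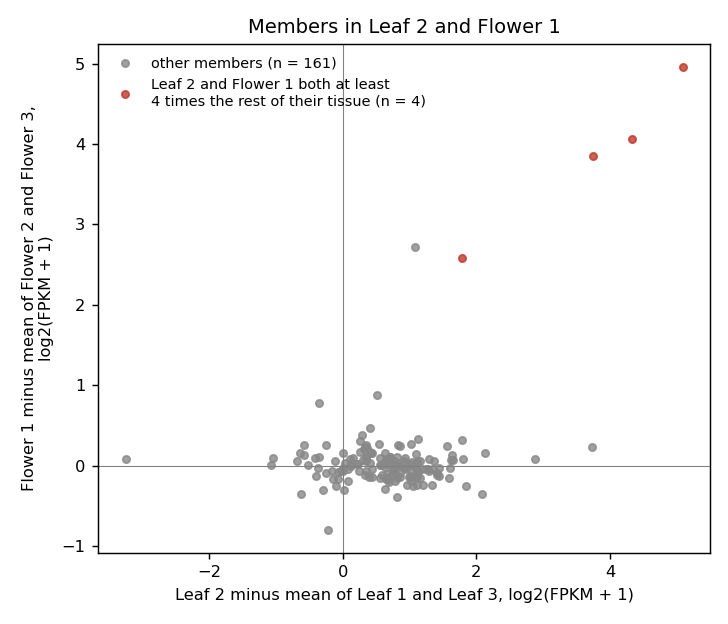
Each point is a member, placed by how far Leaf 2 lies above the mean of Leaf 1 and Leaf 3 (horizontal) and Flower 1 above the mean of Flower 2 and Flower 3 (vertical), both in log2(FPKM + 1). The 4 members with both libraries at least 4 times the rest of their tissue are red, and the other 161 spread to the right of 0 along the horizontal axis and lie around 0 on the vertical one.

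At the other extreme, some members were even over all 6 leaf and flower libraries. HannXRQ_Chr06g0173891 on chromosome 6 had the narrowest range, with 46.0, 51.3 and 49.3 FPKM in leaf and 54.5, 48.9 and 53.9 in flower. It stood at 14.9, 15.9 and 15.3 FPKM in root, 23.4, 21.2 and 24.5 in stem and 20.7, 25.7 and 24.5 in axil, so its step down was modest in every tissue. HannXRQ_Chr10g0305701 on chromosome 10 had 50.8, 55.5 and 59.8 FPKM in leaf and 56.7, 54.7 and 64.4 in flower. It dropped to 0.267, 0.177 and 0.156 FPKM in root, against 21.6, 13.8 and 26.6 in stem and 25.2, 22.7 and 23.1 in axil.

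Each library was also read against genes chosen without it. Of the genes that met the rule on the other 14 libraries, the left-out leaf or flower library stood above all root, stem and axil libraries in 91.6% (Flower 3) to 99.4% (Flower 1), against 11.4% to 18.4% of all genes tested. A left-out root library stood below all leaf and flower libraries in 98.8% to 100%, against 21.8% to 26.4% of all genes tested. An axil library did so in 99.4% in each case, against 11.3% to 16.7%. A left-out stem library did so in 88.5% (Stem 3) to 99.4% (Stem 1), against 13.4% to 18.1%. Stem 3 was the library that most often failed, and the rule chose 200 genes without it. These shares are over the genes chosen without the library, of which 118 (without Leaf 2) to 165 (without Root 2) were members. The members stand on their side in all 15 libraries by the rule. Other libraries of the same tissue helped to choose these genes and may be technical repeats, so high shares were favoured. The comparison with all genes is thus not read as independent support.

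Members were found on all 17 chromosomes, with 1 on an unplaced scaffold. Per 100 genes tested there were 0.501 members, from 0.246 on chromosome 5 (5 members) to 1.04 on chromosome 12 (20 members). Chromosome 12 thus held 12.1% of the members and 5.82% of the genes tested. It is named as the highest of the 17, and its share was not tested. Counts of members here include those that were not among the genes tested. The identifiers run in steps along a chromosome, and by that order 5 pairs of members were at most 10 identifiers apart, and 1 pair was adjacent. The number of such pairs among genes picked at random was not computed, so nothing is read about clustering. In that pair, on chromosome 15, HannXRQ_Chr15g0464991 had 12.4, 16.3 and 11.2 FPKM in leaf and 23.2, 22.2 and 25.9 in flower, against 1.65, 0.751 and 1.04 in root, 1.81, 1.31 and 1.86 in stem and 3.82, 4.83 and 4.37 in axil. Its neighbour HannXRQ_Chr15g0465001 had 3.56, 4.2002 and 1.47 FPKM in leaf and 4.27, 5.65 and 5.23 in flower, with 0 in root and at most 1.25 in stem and axil. Both were lower in leaf than in flower by the mean.

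The members were somewhat shorter than other genes. The gene length implied by the FPKM steps had a median of 1278 nt and quartiles of 944 and 1865 nt, against a median of 1575 nt and quartiles of 988 and 2373 nt over all genes tested on chromosomes. A member had a median of 2867 reads over the 6 leaf and flower libraries and 46 over the 3 root libraries. Only 2 members were shorter than 200 nt. The shortest was HannXRQ_Chr11g0327061 at 74 nt, with 4.34, 7.22 and 1.84 FPKM in leaf and 21.0, 1.83 and 2.92 in flower. It also had the fewest reads, 38 over these 6 libraries, so its levels rest on little, and it is named after its values were seen.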

How the data were processed

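Messenger RNA of 5 sunflower tissues was sequenced in 15 libraries, which the sample labels assign to tissues. Per the labels' protocols, it was captured on oligo(dT) beads, fragmented and given adaptors with molecular identifiers. The authors deposited 1 FPKM value per gene and library. Per the submitters' processing notes, HTSeq 0.6.1 was used. Not given in the sources used here: aligner, build, annotation and any use of the molecular identifiers. The table's 16 filled unnamed columns were not used.

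FPKM values of a gene step by whole reads, which gave reads and gene lengths (whole within 1e-06 plus 5e-09 of the number). On simulated reads the recovery was exact for 99.8% of 46248 genes with reads in at least 3 libraries. Counting limits cover counting error only.

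Values were taken as log2(FPKM + 1), and limma 3.58.1 (R 4.3.3, eBayes with trend) was run on all 15 libraries, tested on simulated data as well. Members, the rule for named genes and tests were chosen with earlier results of these data known. That rule took, for each item, at most 2 members per direction: level, margin, called differences, leaf against flower, threshold, neighbours, absence elsewhere and range. Alternatives covered pseudocount, filter, scaling, variance model, replicate block, thresholds and leaving out libraries. Python 3.11.15, numpy 2.4.6, pandas 2.3.3 and matplotlib 3.10.9 were used.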

Additional observations from a re-analysis of the deposited data

How the results depend on the processing

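Counts were recomputed 199 times, and 182 of the new values lay within a factor of 1.5 of the one reported. Reading the genes chosen without Leaf 2 and Flower 1, an alternative added after the data were seen, was among them, with 69 of 132 genes higher in axil than root and 73 lower in root than stem. Many settings left the libraries compared as they were, as leaving out a leaf library does for root against stem. The recomputed counts are thus not independent, and their tally does not measure stability. The rule chose 235 genes with a pseudocount of 0.1 and 207 with median-of-ratios scaling, 161 and 163 of them members. It chose 189 with quantile normalization and 151 with libraries scaled to equal sums, 156 and 146 of them members. With a pseudocount of 5 the rule chose 82 genes, 78 of them members. Members higher and lower were then 59 and 0 in axil against root, 3 and 4 in axil against stem, and 1 higher in root than stem. A margin of 2 left 19 genes. Members higher in axil than stem were 12 with a pseudocount of 0.1 and 12 with voom on recovered reads. With adjusted p alone, 13 were higher and 21 lower in axil than stem. At a log2 difference of at least 2, the counts were 52 and 0 for axil against root, 1 and 2 for axil against stem, and 0 and 55 for root against stem. These thresholds move counts by construction.

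Leaving out 1 library gave 127 (without Leaf 2) to 200 members (without Stem 3). It gave 84 to 92 members higher and 2 to 3 lower in axil than root, 5 to 9 and 9 to 14 in axil than stem, and 5 to 7 and 86 to 89 in root than stem. Of 336 recomputed differences of the members named for called differences, 323 kept their call, 13 lost it and 0 reversed. Many of these refits, too, left the libraries compared as they were. With libraries scaled to equal sums, root minus stem had a median of 0.09 over all genes, against -0.04 as reported, and of -1.08 over the members. The median of axil minus stem over the members was 0.00 under that scaling and without Axil 3. The labels reuse numbers 1 to 3 in each tissue without stating a link. Deviations from the tissue means had a median correlation of -0.0334 in the 30 pairs with equal numbers, and for 2 of 15 libraries the best match carried its own number, so no pairing was assumed. With a replicate block, 88 members were higher in axil than root and 88 lower in root than stem, and no call of a named member changed.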

Other observations

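Outside the chromosome identifiers, 4 others met the same numbers. Novel01687 had 112, 190 and 127 FPKM in leaf and 81.5, 70.8 and 85.2 in flower, against 0.107, 0 and 0.104 in root, 23.9, 31.9 and 36.1 in stem and 23.5, 21.0 and 16.5 in axil. This is the pattern of the graded members, with root lowest. ENSRNA050000264 had 2.70, 137 and 1.72 FPKM in leaf and 159, 2.85 and 4.85 in flower, against at most 0.6799 in root, 1.37 in stem and 0 in axil. It was high in Leaf 2 and Flower 1 alone, like the 4 members described for these libraries. Novel01206 and ENSRNA050004143 reached at most 3.59 and 4.02 FPKM. The 4 were named after their values were seen.

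Over all chromosome identifiers, 207 were at least 4 times the rest of their tissue in both Leaf 2 and Flower 1, 1098 in Leaf 2 only and 122 in Flower 1 only. Among the members the counts were 4, 5 and 1. High values in these libraries help a gene to meet the rule, so the 2 sets of counts are not compared.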
